A study of Rattus norvegicus with 30 samples.

Results

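The genes described here encode the subunits of the proteasome and the proteins that assemble, activate or inhibit it, measured in the left ventricle of the rat heart. They were the genes whose rat symbol begins with Psma, Psmb, Psmc, Psmd, Psme, Psmf or Psmg followed by a number, found through the transcript accession of each array probe. Of 102 such symbols in the RefSeq annotation of the GRCr8 rat assembly, 54 were protein-coding genes and 48 were pseudogenes. Probes named in this way covered 46 of the genes, out of 26785 genes or unnamed transcripts on the array, and 45 of the 46 passed the filter on dim probes. The brightest probe stood for each gene, and all 45 were well above background on all 30 arrays. The gene that did not pass was Psma8, a testis alpha subunit. Psmb11, Psmb3l1, Psmb3l2, Psmb6l1, Psmd11, Psmg1, Psmg3 and Psmg4l1 were not analysed here. Psmc3ip and Psme3ip1 match the naming pattern but are neither subunits nor assembly proteins, which leaves 43 proteasome genes among the 45.

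Left ventricles came from Sprague Dawley rats, all male and 16 to 18 weeks old. Each heart was hybridised to 1 Agilent array with 1 dye, with 5 hearts in each of 6 groups, which the labels call biological replicates. Sucrose-fed rats had eaten high-sucrose food during 8 to 10 weeks, a diet used in the study to produce insulin resistance, and chow-fed rats were the insulin-sensitive animals. Hearts of each diet were perfused with glucose, perfused with mannitol, or not perfused. Perfused hearts were arrested in the cold and then worked outside the body for 60 min at normal temperature and oxygen supply, with a filling pressure of 15 cm H2O and an afterload of 100 cm H2O. Ketone bodies (hydroxybutyrate at 10 and acetoacetate at 1 mmol/L) and propionate (2 mmol/L) were supplied in every buffer, plus glucose at 25 mmol/L or the same concentration of mannitol, a sugar alcohol that served as the osmotic control. Non-perfused hearts also passed through ice-cold buffer but were frozen at once, so that perfusion here means arrest, removal of blood, buffer, work and time together. All animals were anaesthetised with chloral hydrate.

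The proteasome is the barrel-shaped protease that degrades proteins tagged with ubiquitin. Its core consists of outer rings of alpha subunits and inner rings of beta subunits, and Psmb5, Psmb6 and Psmb7 carry the catalytic sites of the constitutive form. In immune cells, and in other cells exposed to interferon, these are replaced during assembly by Psmb8, Psmb9 and Psmb10, which gives the immunoproteasome. A regulatory particle of ATPases and lid proteins caps the core, recognises and unfolds the substrate, and is essential for protein turnover in heart muscle.

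Between 48.8% and 75.4% of the probes on an array were well above background. Negative control spots varied with a standard deviation above 8 intensity units on 4 arrays, called the noisy arrays here: sucrose mannitol replicate 5, sucrose non-perfused replicates 1 and 5 and replicate 2 of chow non-perfused. All 6 groups were present on each of 4 slides, while sucrose mannitol replicate 1 lay alone on its slide. Row 2 of the slides held every glucose array and 4 sucrose mannitol arrays, and row 1 held the rest. Position on the slide and perfusion can therefore not be told apart in the glucose groups, and only through 1 array in sucrose mannitol hearts. Chow mannitol and chow non-perfused arrays shared a row. Chow glucose and chow mannitol arrays lay in different rows, so buffer and row cannot be told apart in chow hearts. Of the sucrose mannitol arrays, 4 lay in another row than the chow mannitol arrays. All 8 tested markers of heart muscle cells were expressed, and 0 of them differed between perfused and non-perfused hearts. In whole tissue, fewer cells of a type and less RNA per cell cannot be told apart.

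Levels are given as the log2 of the processed signal minus the 75th percentile of that array, so a gene's level has a meaning only between arrays and not against another gene's level. A difference is the log2 gap between group means, given with its standard error (SE) from a limma model of all 30 arrays. The words rose and fell are kept for genes whose p-value, adjusted by the Benjamini-Hochberg method over all 18333 genes tested, was under 0.05. The averaged perfusion comparison sets the mean of the 4 perfused groups (20 arrays) against the mean of the 2 non-perfused groups (10 arrays). Of all genes tested, 2.06% had all 20 perfused arrays above all 10 non-perfused arrays, and 0.605% had them all below. For comparisons of fewer arrays, the share of all genes without overlap was not counted.

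With perfusion no member of the alpha ring, the constitutive beta ring, the ATPases or the lid passed in the averaged comparison. The lid subunit Sem1, outside the naming pattern, did pass. The catalytic immunoproteasome subunits Psmb9 and Psmb10 were 1.27-fold lower. In the averaged comparison 0 of 45 genes rose and 6 fell (13.3%). Of all genes tested, 22.3% changed, made up of 10% that rose and 12.3% that fell. The 6 were Psmb9, Psmb10, Psme2, Psmd10, Psmg4 and Psmf1. The median difference of the 45 genes was -0.06, and that of all genes tested was -0.04. The share that fell was thus close to that of all genes, and the identity of the genes is the more specific description. The median SE was 0.05 for these genes and 0.09 for all genes, and for 39 of the 45 members the 95% interval lay entirely within a 1.25-fold change in either direction.

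**Figure D1:**
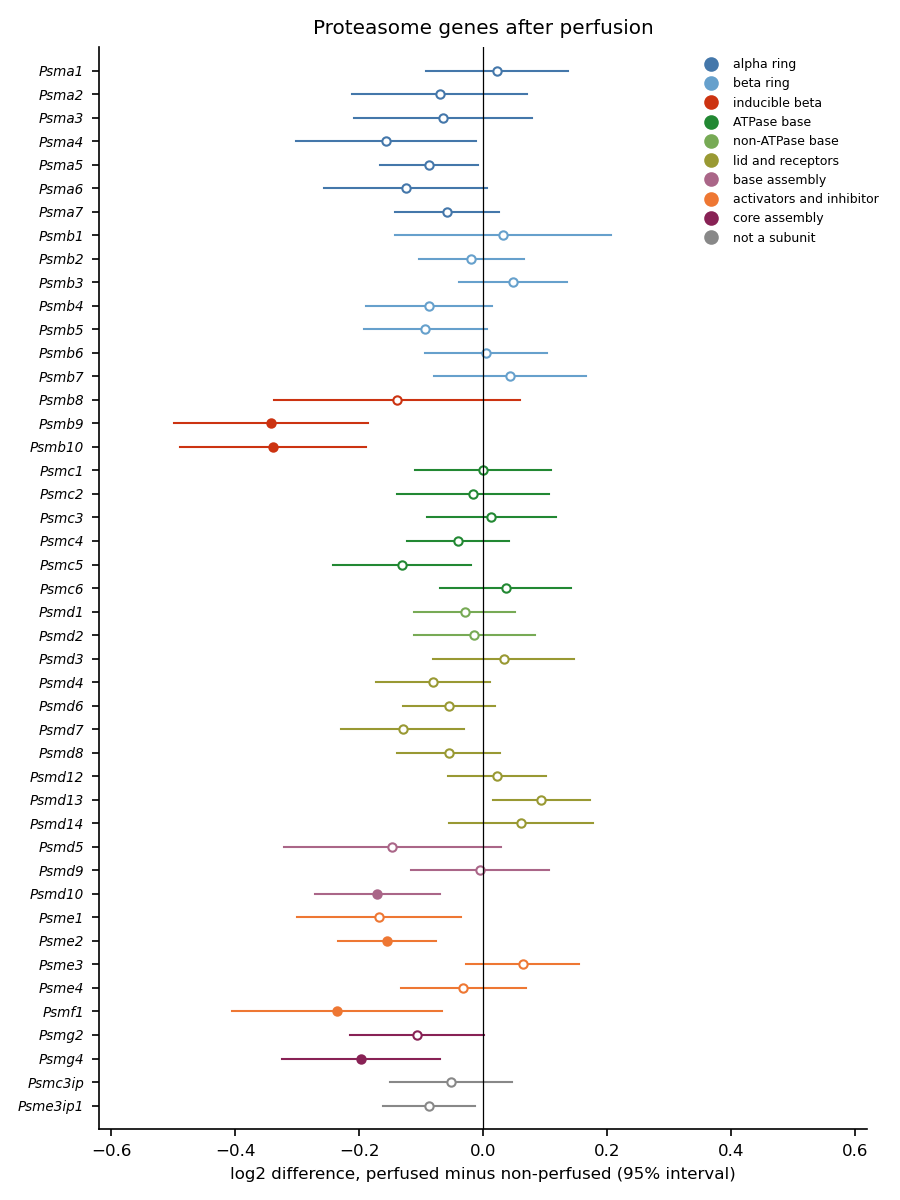
Each point is the log2 difference of the perfused minus the non-perfused hearts, averaged over diets and buffers, with its 95% interval; genes run down the page by role, and filled points passed the adjusted threshold. Psmb9 and Psmb10 lie farthest from 0, at -0.34 each, and the alpha ring, the constitutive beta ring, the ATPases and the lid hold no filled point.

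The DNA before the gene is shown for 3 genes of the immunoproteasome and its activator, namely Psmb9 and Psmb10 (the largest falls) and Psme1 (the largest difference among members that did not pass). The windows are the 250 bases before the start site that RefSeq's promoter table for GRCr8 uses, which is that of 1 transcript. For 17 of the 41 members (of 45) in that table the window reached into the gene as annotated over all its transcripts, and for 5 it lay wholly inside. Only bases outside the annotated gene are printed, 5′ to 3′ along the gene's strand, which leaves out 48 bases for Psmb9 and 9 for Psme1. Capitals mark GAAA, any 2 bases and GAAA, a spacing of GAAA repeats typical of interferon response elements. This motif was searched after the values had been seen, on both strands.
Psmb9 (chr20:4668750-4668951, plus strand): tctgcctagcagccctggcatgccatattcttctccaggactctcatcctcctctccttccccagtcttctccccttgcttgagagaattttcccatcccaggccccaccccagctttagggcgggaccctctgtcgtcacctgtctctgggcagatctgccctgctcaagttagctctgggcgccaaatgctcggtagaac
Psmb10 (chr19:50743293-50743542, minus strand): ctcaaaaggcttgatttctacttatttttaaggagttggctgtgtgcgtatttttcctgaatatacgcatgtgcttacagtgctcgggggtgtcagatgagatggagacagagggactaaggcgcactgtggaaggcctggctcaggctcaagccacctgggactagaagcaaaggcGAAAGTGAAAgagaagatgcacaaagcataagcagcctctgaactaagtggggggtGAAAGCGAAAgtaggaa
Psme1 (chr15:33038721-33038961, plus strand): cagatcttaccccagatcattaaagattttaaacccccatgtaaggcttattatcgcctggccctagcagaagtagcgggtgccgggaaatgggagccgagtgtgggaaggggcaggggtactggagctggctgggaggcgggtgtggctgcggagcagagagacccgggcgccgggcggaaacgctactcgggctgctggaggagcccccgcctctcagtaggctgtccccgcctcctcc
The Psmb10 window held the motif at positions -73 and -17 from the start, on the gene's own strand. The Psmb9 and Psme1 windows held none over all 250 bases. The Psme2 window held it at -53 from its table start, but all of that window lay inside the annotated gene, and it is not printed. Psme2 was added here after its match had been seen. Of the 41 windows 5 (12.2%) held the GAAA pair, namely those of Psma4, Psmb10, Psmb3, Psmd7 and Psme2, against 3.41% of all 33469 windows. Any repeated windows of a gene were removed among the members but not among the 33469. Nor were the 33469 limited to coding or tested genes. The core of the antioxidant response element, TGACNNNGC, stood in 7 of the 41 (17.1%) against 10.1% of all windows, in Psma3, Psmb2, Psmb5, Psmb6, Psmd1, Psmd9 and Psme4. CCAAT, the box bound by the factor NF-Y, stood in 21 of the 41 (51.2%) against 34% of all windows. These are matches of letters within a window, not binding sites.

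The inducible beta subunits are the catalytic subunits of the immunoproteasome. Psmb9, the caspase-like site's replacement, was 0.69, 0.94, 1.18, 1.11 and 0.91 in sucrose glucose hearts and 1.26, 1.06, 0.88, 1.09 and 1.00 in sucrose mannitol hearts, against 1.71, 1.13, 1.28, 1.36 and 1.28 in sucrose non-perfused hearts. It was 0.60, 0.96, 0.99, 1.32 and 0.56 in chow glucose hearts and 0.89, 0.83, 1.08, 0.76 and 0.80 in chow mannitol hearts, against 1.39, 1.27, 1.08, 1.14 and 1.26 in chow non-perfused hearts. Of the 20 perfused hearts, 19 lay below the median of the non-perfused hearts and 14 below the lowest of them, and the sets overlapped through the others. The averaged difference was -0.34 (SE 0.08, adjusted p = 0.00129 by limma), or 1.27-fold lower, and it was negative on 4 of 4 slides, between -0.53 and -0.13. By group the differences were -0.38 (sucrose glucose), -0.29 (sucrose mannitol), -0.34 (chow glucose) and -0.36 (chow mannitol). None of these 4 passed alone, with adjusted p between 0.0543 and 0.145 by limma.

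Psmb10, which replaces the trypsin-like site, was 2.05, 2.21, 2.27, 2.40 and 2.34 in sucrose glucose hearts and 2.39, 2.30, 2.25, 2.52 and 2.20 in sucrose mannitol hearts, against 2.98, 2.33, 2.61, 2.51 and 2.63 in sucrose non-perfused hearts. It was 2.06, 2.11, 2.21, 2.47 and 1.98 in chow glucose hearts and 2.32, 1.94, 2.44, 1.99 and 2.28 in chow mannitol hearts, against 2.79, 2.51, 2.24, 2.58 and 2.56 in chow non-perfused hearts. All 20 perfused hearts lay below the non-perfused median and 9 below the lowest non-perfused heart. The averaged difference was -0.34 (SE 0.07, adjusted p = 0.000908 by limma), or 1.27-fold lower, and by slide it lay between -0.52 and 0.02, negative on 3 of 4 slides. The differences by group were -0.36 (sucrose glucose), -0.28 (sucrose mannitol), -0.37 (chow glucose) and -0.34 (chow mannitol). Only that of chow glucose passed, at an adjusted p of 0.0459 by limma, and this call ended on leaving out any 1 of 18 arrays (adjusted p 0.0506 to 0.141).

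Psmb8, which replaces the chymotrypsin-like site and is coded beside Psmb9 in the major histocompatibility region, had levels from -0.39 to 0.77 with a median of 0.14 in perfused hearts, against 0.04 to 0.56 with a median of 0.19 in non-perfused hearts. Of the perfused hearts 13 of 20 lay below the non-perfused median, 6 below the lowest non-perfused heart and 1 above the highest. Its difference of -0.14 (SE 0.10) did not pass, at an adjusted p of 0.345 by limma. Whether Psmb8 differed in its response from Psmb9 and Psmb10 was not tested directly.

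**Figure D2:**
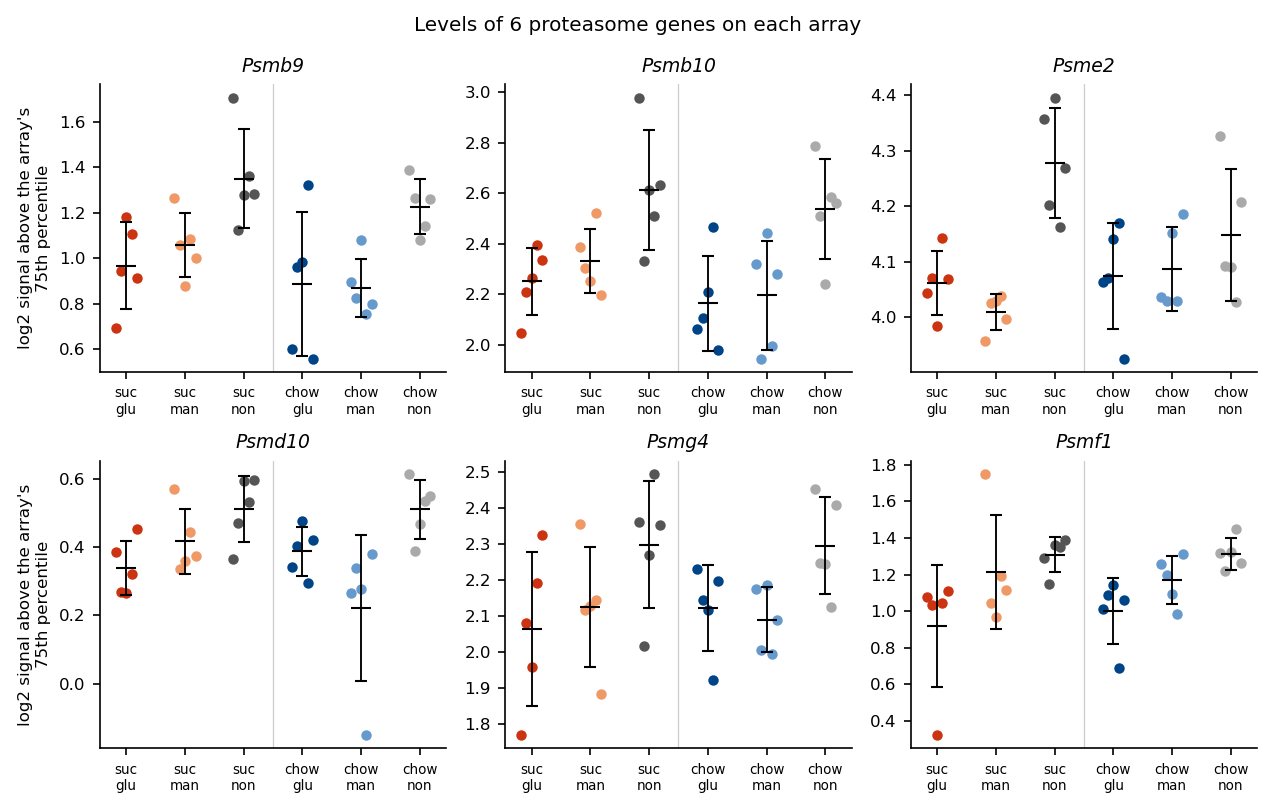
Level of each of the 6 genes that fell with perfusion, as log2 signal above the 75th percentile of the array, in sucrose (suc) and chow hearts perfused with glucose (glu), with mannitol (man) or not perfused (non); points are arrays, the black marks the mean and SD of 5. Perfused Psmb9 and Psmb10 levels lie mostly below those of the non-perfused hearts of the same diet, and single arrays stand far from the rest for Psmf1 and Psmd10.

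None of the constitutive partners of these subunits passed. Psmb6, the caspase-like subunit that Psmb9 replaces, ranged from 2.32 to 2.75 with a median of 2.56 in perfused hearts, against 2.43 to 2.72 with a median of 2.52 in non-perfused hearts. Psmb7, the trypsin-like subunit, ranged from 2.56 to 3.20 with a median of 2.82 in perfused hearts, against 2.61 to 3.00 with a median of 2.77 in non-perfused hearts. Psmb5, the chymotrypsin-like subunit, ranged from 3.69 to 4.09 with a median of 3.83 in perfused hearts, against 3.72 to 4.10 with a median of 3.95 in non-perfused hearts. The differences were 0.00 for Psmb6, 0.04 for Psmb7 and -0.09 for Psmb5, with adjusted p of 0.971, 0.683 and 0.181 by limma. Perfused hearts below the non-perfused median numbered 8 of 20 for Psmb6, 6 for Psmb7 and 17 for Psmb5. The Psmb5 difference was -0.19 in sucrose mannitol hearts (adjusted p = 0.134 by limma) and between -0.08 and -0.02 in the other groups.

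The ratio of an inducible to its constitutive subunit was formed within each array, which removes the scaling between arrays, and was read only as a change. The ratio of Psmb10 to Psmb7 was 0.38 log2 units lower in 20 perfused hearts than in 10 non-perfused hearts, with a mean of -0.38 ± 0.27 (SD) against 0 ± 0.24 (SD) after centring on the non-perfused hearts. A two-sided permutation test with 100000 draws gave p = 0.00042, or 0.00126 after adjustment over the 3 ratios, and the difference was negative on 4 of 4 slides. The draws for all 3 ratios shuffled the arrays without regard to slide, diet or buffer. The ratio of Psmb9 to Psmb6 differed by -0.35 (permutation p = 0.00142, adjusted 0.00213), was negative on 3 of 4 slides and lay between -0.62 and 0.02 by slide. The ratio of Psmb8 to Psmb5 differed by -0.05 (permutation p = 0.696, also after adjustment), with differences of -0.14 for Psmb8 and -0.09 for Psmb5 themselves. Perfused hearts below the non-perfused median numbered 18 of 20 for Psmb10 over Psmb7 and 17 of 20 for Psmb9 over Psmb6, but 6 of 20 for Psmb8 over Psmb5. Since Psmb9 and Psmb10 enter these ratios, the ratios restate their fall on another scale and are not a separate observation.

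**Figure D3:**
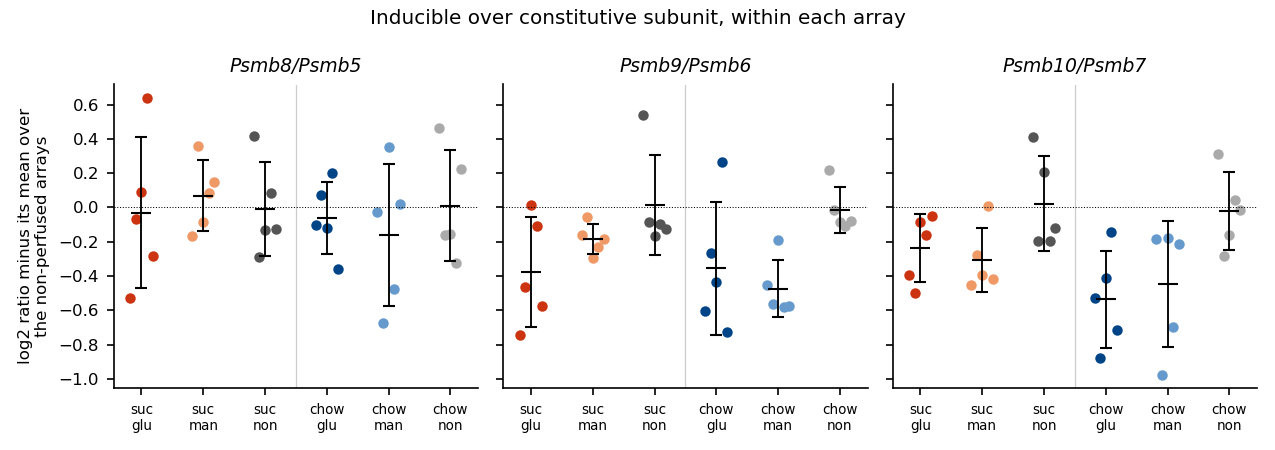
Log2 ratio of each inducible subunit to the constitutive subunit it replaces, within each array, minus the mean ratio over the non-perfused arrays (dotted line at 0); points are arrays and black marks the mean and SD of 5, with groups named as sucrose (suc) or chow, and glucose (glu), mannitol (man) or non-perfused (non). Perfused arrays average -0.35 for Psmb9 over Psmb6 and -0.38 for Psmb10 over Psmb7, and -0.05 for Psmb8 over Psmb5.

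The immunoproteasome is most abundant in leukocytes, and markers of these cells also moved with perfusion. Of 9 leukocyte markers measured, 4 rose (Ptprc, Cd68, Cd163 and Mrc1) and 3 fell (Cd79b, S100a8 and S100a9). Cd79b of B cells and S100a8 of neutrophils were well above background on 0 of 20 perfused arrays and on 7 of 10 non-perfused arrays, and S100a9 was so on 3 of 20 and 10 of 10. These 3 passed the filter on dim probes only through non-perfused hearts, so a fall was the only call open to them. Of 5 red cell markers, 4 fell. Among other cell types, 1 of 6 endothelial markers (Cldn5), 3 of 7 fibroblast markers (Lum, Tcf21 and Dcn) and 1 of 6 smooth muscle and pericyte markers (Cnn1) rose, and 1 of 3 neuron markers (Npy) fell. The summed level of the 9 leukocyte markers ranged from 3.43 to 3.80 in sucrose glucose and 3.64 to 3.98 in sucrose mannitol hearts, against 3.21 to 3.85 in sucrose non-perfused hearts. In chow hearts it ranged from 3.50 to 3.83 (glucose) and 3.46 to 4.01 (mannitol), against 3.06 to 4.20 (non-perfused). Lyz2 made up most of this sum, with medians of 3.43 in perfused and 3.57 in non-perfused hearts. Cd68, the next brightest of the 9, had medians of 0.08 and -0.25. The sum thus follows Lyz2 and does not measure leukocyte content. The part of any of these cells in the fall of Psmb9 and Psmb10 was not tested.

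Activators and an inhibitor of the core form the next group. Psme1 and Psme2 are the subunits of PA28, an interferon-inducible cap that opens the core without ATP. Psme2 was 4.04, 4.07, 3.98, 4.14 and 4.07 in sucrose glucose hearts and 3.96, 4.03, 4.03, 4.04 and 4.00 in sucrose mannitol hearts, against 4.36, 4.20, 4.40, 4.16 and 4.27 in sucrose non-perfused hearts. All 10 perfused hearts of sucrose-fed rats lay below all 5 non-perfused ones, a separation whose share over all genes was not counted. The fall was 0.22 with glucose (adjusted p = 0.0289) and 0.27 with mannitol (adjusted p = 0.00479) by limma. In these comparisons Psme2 was the only 1 of the 45 genes called, when 8.68% of all genes changed with glucose (5.54% up, 3.14% down) and 11.2% with mannitol (5.53% up, 5.67% down). Without the 4 noisy arrays the falls were 0.19 and 0.24 and no longer passed (adjusted p = 0.168 and 0.0744), and leaving out any 1 of 5 arrays also ended the glucose call. Most of these perfused arrays also lay in another row of the slides than the sucrose non-perfused arrays.

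In chow hearts Psme2 was 4.06, 4.07, 4.14, 4.17 and 3.92 with glucose and 4.04, 4.03, 4.15, 4.03 and 4.19 with mannitol, against 4.33, 4.09, 4.09, 4.03 and 4.21 without perfusion, and these groups overlapped. The difference in response between the diets was -0.17 with an unadjusted p of 0.0329 and an adjusted p of 0.999 by limma, so that a difference between diets was not established. Averaged over groups, Psme2 differed by -0.16 (SE 0.04, adjusted p = 0.00363 by limma), or 1.11-fold lower, and was negative on 4 of 4 slides. All 20 perfused hearts lay below the non-perfused median.

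Psme1, the partner of Psme2, ranged from 5.78 to 6.36 with a median of 6.01 in perfused hearts, against 5.99 to 6.64 with a median of 6.14 in non-perfused hearts. Its averaged difference of -0.17 (SE 0.06) was of the size of that of Psme2 but did not pass (adjusted p = 0.0617 by limma). With slide as a fixed block it was -0.19 and passed (adjusted p = 0.00258 by limma). Psme3, which forms the nuclear PA28 gamma cap, and Psme4, the PA200 cap, differed by 0.06 and -0.03 and did not pass.

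Psmf1 encodes PI31, a protein that inhibits the core in the test tube and takes part in proteasome transport and assembly. It ranged from 0.32 to 1.75 with a median of 1.09 in perfused hearts, against 1.15 to 1.45 with a median of 1.32 in non-perfused hearts. Of the perfused hearts 15 of 20 lay below every non-perfused heart and 1 above all of them. The averaged difference was -0.24 (SE 0.08, adjusted p = 0.0391 by limma) and negative on 4 of 4 slides. The call rested on the probe: a second Psmf1 probe, also above background on all 30 arrays, differed by -0.06, and the mean of both by -0.15 (adjusted p = 0.0752 by limma). It also ended on leaving out any 1 of 13 arrays (adjusted p 0.0517 to 0.0749) and without the 4 noisy arrays (-0.23, adjusted p = 0.124 by limma).

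Among the assembly proteins, 1 core and 1 base chaperone fell. Psmg4, part of the chaperone pair that guides the early alpha ring, ranged from 1.77 to 2.36 with a median of 2.12 in perfused hearts, against 2.02 to 2.49 with a median of 2.31 in non-perfused hearts. It fell by 0.20 (SE 0.06, adjusted p = 0.0213 by limma), with 18 of 20 perfused hearts below the non-perfused median. Its second probe differed by 0.00 and the mean of both by -0.10 (adjusted p = 0.478 by limma). Without the 4 noisy arrays the difference was -0.17 (adjusted p = 0.114 by limma), and the call also ended without chow non-perfused replicate 1 or sucrose non-perfused replicate 4 (adjusted p 0.0506 and 0.0537). Psmg2, of the other core chaperone pair, differed by -0.11 and did not pass (adjusted p = 0.156 by limma).

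Psmd10, also called gankyrin, is a chaperone that holds an ATPase during assembly of the base. It ranged from -0.15 to 0.57 with a median of 0.35 in perfused hearts, against 0.37 to 0.62 with a median of 0.54 in non-perfused hearts. The averaged fall was 0.17 (SE 0.05, adjusted p = 0.0115 by limma), negative on 4 of 4 slides, with 19 of 20 perfused hearts below the non-perfused median. Psmd5 and Psmd9, the other base chaperones measured, differed by -0.15 and 0.00 and did not pass (adjusted p = 0.245 and 0.973 by limma).

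In chow mannitol hearts alone Psmd10 was 0.27, 0.34, 0.28, -0.15 and 0.38, against 0.62, 0.39, 0.47, 0.54 and 0.55 in chow non-perfused hearts, without overlap. How many of all genes separated in this way was not counted. The Psmd10 fall was 0.29 (adjusted p = 0.0202 by limma). It shrank to 0.20 without chow mannitol replicate 4, the lowest array, and then did not pass (adjusted p = 0.0774 by limma), nor did it without chow non-perfused replicate 1 (adjusted p = 0.0608 by limma).

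Among the constitutive members in the body of the proteasome (alpha ring, constitutive beta ring, ATPases, base and lid) none passed in the averaged comparison. The lid subunit Sem1, outside the naming pattern, fell and is described with the partner proteins. With slide as a fixed block Psmc5 (-0.13, adjusted p = 0.036 by limma) and Psmb4 (-0.10, adjusted p = 0.0497) passed, and with slide as a random block Psmc5 (-0.13, adjusted p = 0.0352) and Psmd7 (-0.13, adjusted p = 0.035) did. Of the 7 alpha ring genes, Psma1 to Psma7, which form the gate and docking surface of the core, 0 passed, with differences from -0.16 to 0.02. Psma4 lay at the low end, from 2.79 to 3.31 with a median of 3.17 in perfused hearts, against 2.78 to 3.56 with a median of 3.36 in non-perfused hearts. All 20 perfused hearts lay below that non-perfused median, but the lowest non-perfused heart lay below them all, and the adjusted p was 0.121 by limma. Psma6 followed at -0.13 (adjusted p = 0.177 by limma), from 4.41 to 5.23 in perfused hearts, against 4.94 to 5.11 in non-perfused hearts. The other alpha genes, Psma2, Psma3, Psma5, Psma7 and Psma1, lay between -0.09 and 0.02.

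Of the 7 genes of the constitutive beta ring, 0 passed. Psmb1, Psmb2, Psmb3 and Psmb4, of which none carries a catalytic site, differed by 0.03, -0.02, 0.05 and -0.09. Psmb4 ranged from 3.93 to 4.53 with a median of 4.23 in perfused hearts, against 4.16 to 4.48 with a median of 4.32 in non-perfused hearts, and these overlapped widely (adjusted p = 0.233 by limma).

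The 6 ATPases Psmc1 to Psmc6, whose ring unfolds substrates and threads them into the core, had 0 calls and differences from -0.13 to 0.04. Psmc5 stood lowest, from 5.51 to 6.08 with a median of 5.69 in perfused hearts, against 5.70 to 5.99 with a median of 5.83 in non-perfused hearts. Of its perfused hearts 11 of 20 lay below every non-perfused heart and 1 above all of them, and the difference did not pass (adjusted p = 0.0862 by limma). Psmc4 came next at -0.04 (adjusted p = 0.543 by limma). Psmd1 and Psmd2, the large scaffold proteins of the base that bind ubiquitin receptors, differed by -0.03 and -0.01 with 0 of 2 called.

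Of 8 member genes of the lid and the ubiquitin receptors, 0 passed. Psmd7, the partner of the deubiquitinase Psmd14, ranged from 1.66 to 2.16 with a median of 2.03 in perfused hearts, against 1.91 to 2.22 with a median of 2.15 in non-perfused hearts, a difference of -0.13 just short of the threshold (adjusted p = 0.0532 by limma). Psmd14 itself, which strips ubiquitin from substrates, differed by 0.06 (adjusted p = 0.509 by limma), and the ubiquitin receptor Psmd4 by -0.08 (adjusted p = 0.213 by limma). The lid scaffold genes Psmd3, Psmd6, Psmd8 and Psmd12 lay between -0.06 and 0.03. Psmc3ip, which takes part in meiotic recombination, and Psme3ip1, which binds Psme3, differed by -0.05 and -0.09 without passing.

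Psmd13, another lid subunit, was the only member that rose in any comparison. In chow-fed rats it was 1.14, 0.99, 1.10, 1.13 and 1.08 with glucose and 1.14, 1.02, 1.02, 1.11 and 1.16 with mannitol, against 0.95, 0.83, 0.80, 0.84 and 0.92 without perfusion. The 5 non-perfused hearts lay below all 10 perfused ones, a separation whose share over all genes was not counted. It rose by 0.22 in both, with adjusted p = 0.0204 (glucose) and 0.021 (mannitol) by limma, and was positive on 4 of 4 slides in each. In the glucose comparison 2 of 45 members were called (Psmd13 and Psmb10) when 9.5% of all genes changed (5.47% up, 4.04% down), and in the mannitol comparison 2 (Psmd13 and Psmd10) when 8.49% did (4.83% up, 3.65% down). The calls rested on few arrays: without chow non-perfused replicate 3 the rises were 0.20 and 0.21 and did not pass (adjusted p = 0.0574 and 0.0591 by limma). Leaving out chow glucose replicate 1, or chow mannitol replicate 1 or 5, ended the call in its own comparison, and the rises of 0.21 in both did not pass without the 4 noisy arrays (adjusted p = 0.0524 and 0.0552).

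In sucrose-fed rats Psmd13 was 1.02, 1.22, 0.96, 1.08 and 1.24 with glucose and 1.00, 1.07, 1.06, 0.89 and 1.06 with mannitol, against 0.97, 1.09, 1.06, 1.20 and 1.16 without perfusion, and the groups overlapped. The response in sucrose hearts minus that in chow hearts was -0.26 (SE 0.08), with an unadjusted p of 0.00227, the smallest among the members, but an adjusted p of 0.999 by limma. The response of Psmd13 was thus not shown to differ between the diets.

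Comparisons of 1 diet share their non-perfused hearts. No member rose or fell in all 4, against 3.24% of all genes that rose and 1.37% that fell in all 4. The median SE of the members was 0.08 in a single comparison and 0.05 in the average. For Psmb9 and Psmb10 the chow mannitol hearts, which shared row 1 with the chow non-perfused hearts, gave differences of -0.36 and -0.34. Neither of these passed, and the part of position on the slide was not tested.

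Several regulators of proteasome genes rose with perfusion. Of 15 tested regulators 7 rose and 0 fell, in a list drawn up with earlier results of these data known, when 10% of all genes tested rose. Nfe2l1 encodes Nrf1, the factor that raises proteasome genes when the proteasome is inhibited. It was 0.66, 0.41, 0.23, 0.69 and 0.54 in sucrose glucose hearts and 0.68, 0.36, 0.55, 0.58 and 0.61 in sucrose mannitol hearts, against 0.27, 0.30, 0.31, 0.12 and 0.37 in sucrose non-perfused hearts. In chow hearts it was 0.61, 0.53, 0.52, 0.83 and 0.50 with glucose and 0.51, 0.74, 0.67, 0.47 and 0.43 with mannitol, against 0.10, 0.38, 0.35, 0.32 and 0.22 without perfusion. The chow groups did not overlap, while in sucrose hearts 1 glucose array and 1 mannitol array lay below the highest non-perfused array. The averaged rise was 0.28 (SE 0.05, adjusted p = 0.000267 by limma), positive on 4 of 4 slides.

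Nfe2l2, which encodes Nrf2, the antioxidant regulator that also drives some proteasome genes, ranged from 1.75 to 2.39 with a median of 2.09 in perfused hearts, against 1.11 to 1.73 with a median of 1.40 in non-perfused hearts. The sets did not overlap, as in 2.06% of all genes tested in this direction, and the rise was 0.70 (SE 0.06, adjusted p = 2.26e-09 by limma). The small Maf proteins, with which both factors pair on DNA, rose too: Mafk by 1.73 (3.31-fold), Maff by 1.45 and Mafg by 0.60, each positive on 4 of 4 slides. Maff was well above background on all 20 perfused arrays and on 7 of 10 non-perfused arrays, and its rise was 0.84 with normexp and quantile normalization.

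Irf1, the interferon regulatory factor that drives Psmb9, Psmb10 and other immunoproteasome genes, moved opposite to them. It ranged from 2.72 to 4.21 with a median of 3.12 in perfused hearts, against 1.93 to 2.26 with a median of 2.06 in non-perfused hearts. The sets did not overlap, as in 2.06% of all genes tested in this direction. The rise of Irf1 was 1.14 (SE 0.11, adjusted p = 6.53e-09 by limma), or 2.21-fold, between 1.07 and 1.37 by slide. Stat3, another regulator of these genes, rose by 0.38.

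**Figure D4:**
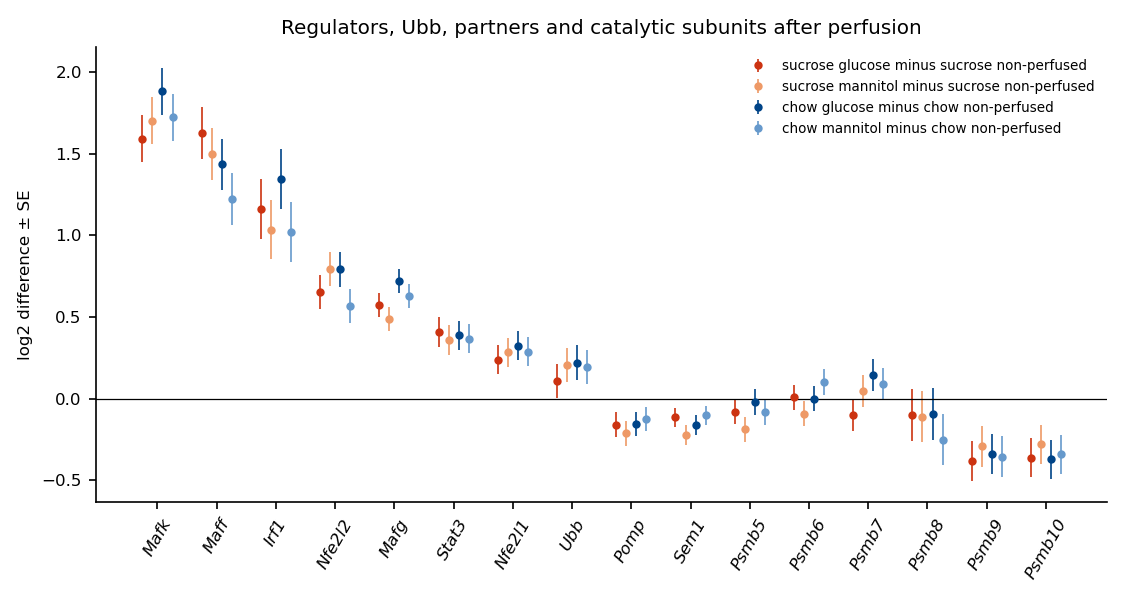
Log2 difference with its SE in each of the 4 perfused groups against the non-perfused hearts of the same diet, for regulators, Ubb, 2 partner proteins and the constitutive and inducible catalytic subunits. Regulators from Mafk to Nfe2l1 lie above 0 in all 4 comparisons, Psmb5 to Psmb7 lie between -0.19 and 0.14, and Psmb9 and Psmb10 lie between -0.38 and -0.28.

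Of 13 tested proteins that work with the proteasome, 1 rose and 3 fell (7.69% and 23.1%), against 10% and 12.3% of all genes. Zfand2a, which binds the proteasome under arsenic and heat stress, rose by 0.74 (adjusted p = 6.32e-09 by limma). Pomp, the chaperone that completes the core, fell by 0.16, from 4.46 to 4.92 with a median of 4.66 in perfused hearts, against 4.75 to 4.93 with a median of 4.82 in non-perfused hearts (adjusted p = 0.01 by limma). Sem1, the small lid subunit outside the naming pattern, fell by 0.15 (adjusted p = 0.00294 by limma), and the shuttle protein Ubqln1 fell by 0.17 (adjusted p = 0.0105 by limma). With quantile normalization Pomp (-0.09) and Sem1 (-0.08) did not pass (adjusted p = 0.156 and 0.104 by limma). Without the 4 noisy arrays Pomp (-0.14) and Ubqln1 (-0.15) did not pass either (adjusted p = 0.0844 and 0.0619 by limma). The deubiquitinase Usp14 and the receptor Adrm1 differed by 0.01 and -0.09 and did not pass, and Uchl5 was not analysed here.

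Ubb, a gene that encodes ubiquitin itself, ranged from 7.09 to 7.68 with a median of 7.17 in perfused hearts, against 6.76 to 7.19 with a median of 7.06 in non-perfused hearts, and the sets overlapped. It rose by 0.18 (adjusted p = 0.0408 by limma), a call that ended on leaving out any 1 of 11 arrays (adjusted p 0.0515 to 0.103).

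Glucose against mannitol changed 0 of the 45 members in chow hearts, in sucrose hearts and on average, when 0%, 0.00545% and 0.00545% of all genes changed by limma. At an unadjusted p under 0.05 there were 2, 3 and 3 members. In the average over diets these were Psmd9 at 0.18, Psmf1 at -0.23 and Psmd7 at 0.12, with limma p-values before adjustment of 0.00703, 0.0213 and 0.037. After adjustment each stood at 0.999. Psmd9 ranged from 1.37 to 1.72 with a median of 1.52 in 10 glucose hearts, against 1.09 to 1.56 with a median of 1.29 in 10 mannitol hearts, and its difference was positive on 4 of 4 slides. A second Psmd9 probe differed by 0.10 and a second Psmf1 probe by -0.02 in this average. Their limma p-values before adjustment were 0.295 and 0.843. In chow hearts the buffers also lay in different rows of the slides. For 44 of the 45 genes the 95% interval lay within a 1.25-fold change, and the intervals reached from -0.43 to 0.31. Psmb9 and Psmb10 differed by -0.04 and -0.06 between the buffers.

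Sucrose against chow likewise changed 0 of 45 members, in non-perfused, mannitol and glucose hearts and on average, when 0%, 0.00545%, 0% and 0.00545% of all genes changed by limma. At an unadjusted p under 0.05 there were 2, 1, 1 and 0 members. All 45 averaged intervals lay within a 1.25-fold change, from -0.24 to 0.28. Psmd13 had the smallest unadjusted p in non-perfused hearts, at 0.00101, with 0.97, 1.09, 1.06, 1.20 and 1.16 in sucrose hearts, against 0.95, 0.83, 0.80, 0.84 and 0.92 in chow hearts. These groups did not overlap and the difference of 0.23 was positive on 4 of 4 slides, but it failed the adjustment over all genes. The share of all genes without overlap was not counted for this comparison. In the averaged comparison Psme1, at 0.12, had the smallest p (0.0542 unadjusted). Psmb9 and Psmb10 were 0.13 and 0.10 higher in sucrose than in chow hearts, which did not pass.

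The 2 interactions also had 0 calls among the members, and 0% of all genes passed in either. For diet by perfusion 3 members had an unadjusted p under 0.05 (Psmd13, Psmc3 and Psme2), and for diet by glucose 1 did (Psmd10, -0.24). The median SE of the members was 0.10 and 0.12 in these interactions, so only larger differences in response would have been detectable with 5 arrays a group.

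**Figure D5:**
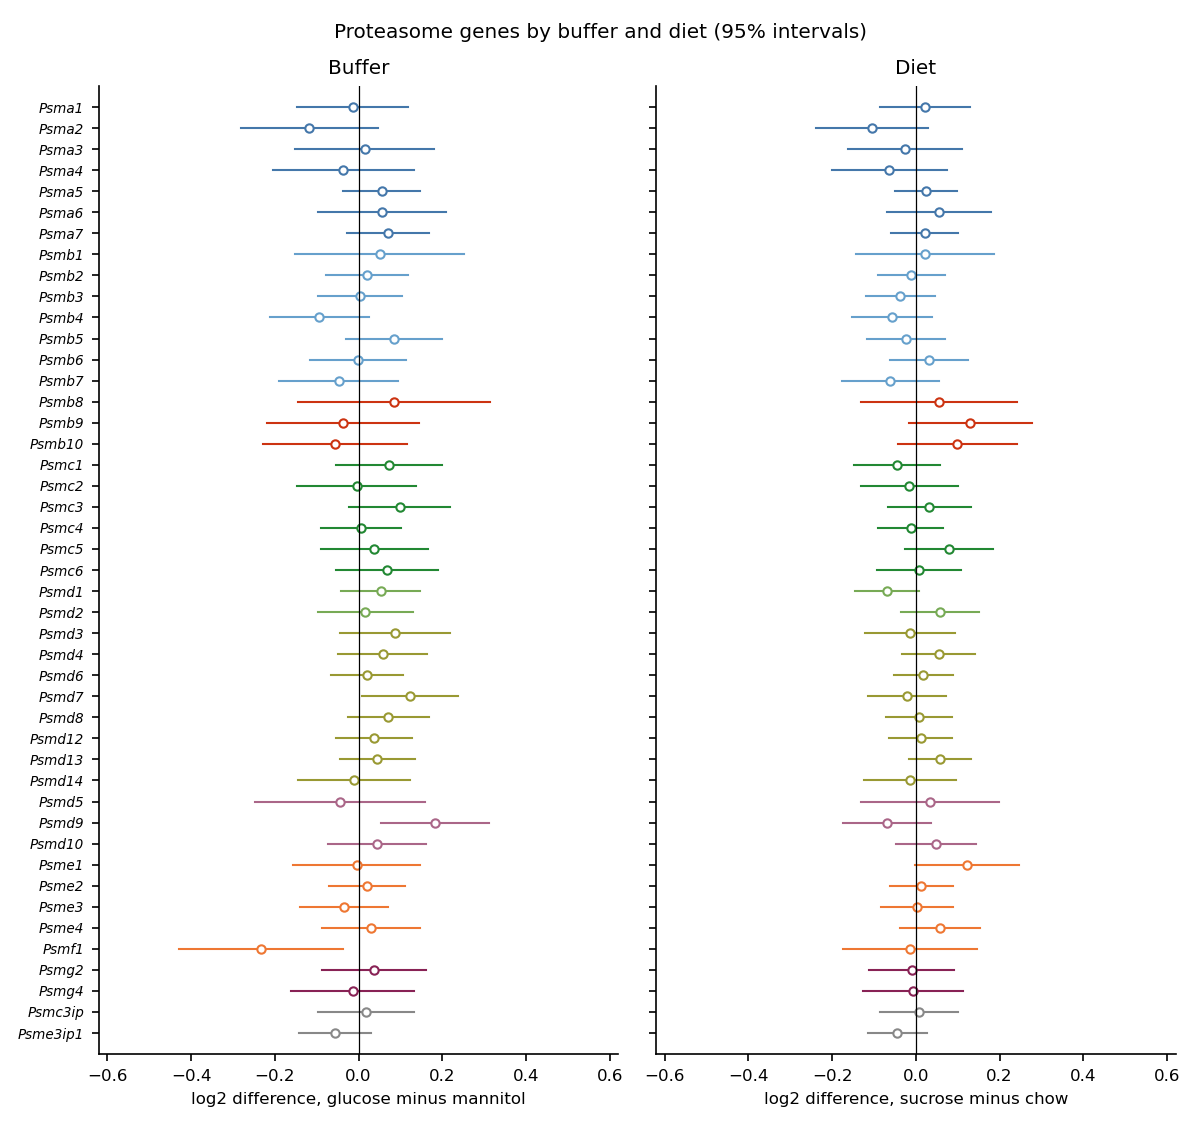
Left, glucose minus mannitol averaged over both diets; right, sucrose minus chow averaged over the 3 states; points are log2 differences with 95% intervals for the 45 genes, in the order and colours of the perfusion plot. All points are open, since none passed the adjusted threshold, and the intervals reach from -0.43 to 0.31 for the buffer and from -0.24 to 0.28 for the diet.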

How the data were processed

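The 30 deposited scanner files hold spot intensities from Agilent Feature Extraction 11.0.1.1, per the file headers, background-subtracted and detrended within each array and with nothing applied between arrays, while the submitters' processing notes name version 10.3. The authors' deposited series table holds log2 values whose scaling between arrays is not given in the sources used here. It served as an alternative. Within arrays it followed the log2 of the background-subtracted signal (lowest correlation 0.9985), with array medians from 7.23 to 7.24.

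Outlier spots were left out, spots of a probe averaged, and log2 of the processed signal taken minus the array's 75th percentile. Of 30367 probes 18355 had a symbol through RefSeq accessions and 12012 had none. A gene was tested where its brightest probe was well above background, by the flag in the deposited files, on at least 4 of 5 arrays of a group. This kept 18333 of 26785. Then limma 3.58.1 in R 4.3.3 fitted 6 group means, and 14 comparisons were each adjusted by the Benjamini-Hochberg method over all genes. The ratios used permutation tests in scipy 1.17.1. The settings were also tried on simulated data, with far fewer genes changed than here. Averaged perfusion changes of 0.25 log2 units were called there in 44.8% of 67 genes, and changes of 0.5 in 80.6% of 62. For the members among these genes the shares were 44.4% of 9 and 100% of 12. The number of arrays limits the precision.

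The settings varied were the scaling (quantile, or the median of bright probes), the background correction (normexp with an offset of 50 on median foreground, as the files hold no mean), the authors' table, the filter, the averaging of probes, blocks for slide or replicate, a fit of the 2 groups at hand, limma's robust trend, and the arrays kept. Replicate numbers were not treated as pairs, because residuals of same-numbered arrays correlated at -0.04 on average, against 0.01 for other numbers and 0.20 within a slide. The files hold no probe sequences, so cross-hybridisation with pseudogenes, annotated for 19 of the 45 genes, was not checked. The members and lists were chosen with earlier results of these data known. By rule, all members were named, and levels were given for members called alike in all 4 perfusion comparisons, for the 2 members of each role group with the largest averaged perfusion difference, for members called for buffer, diet or interaction, and for the catalytic subunits. From each context list up to 4 called genes were named, plus Nfe2l1, Nfe2l2, Pomp, Ubb, Usp14, Uchl5, Adrm1, Irf1 and Tap1 where tested, and some genes of these lists are not reported here. Levels of Psmd13 and Psmd9, and Tap2, Tapbp and B2m, were added after their values had been seen. The p-values measure the spread between these hearts.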

Additional observations from a re-analysis of the deposited data

Results flagged for a closer look

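Within groups of 5 arrays, 1 array stood apart by Dixon's criterion in 7 of 132 groups (22 of the named genes), close to the 1 in 20 groups that chance gives. For Psmf1, chow glucose replicate 4 stood at 0.69, with the others between 1.01 and 1.14, sucrose glucose replicate 3 at 0.32, with the others between 1.04 and 1.11, and sucrose mannitol replicate 1 at 1.75, with the others between 0.97 and 1.19. The array at 1.75 is the one alone on its slide. For Psmd10, chow mannitol replicate 4 stood at -0.15, with the others between 0.27 and 0.38, and the same array was low for Psma6, at 4.41 against 4.92 to 5.03. For Psmb7, chow glucose replicate 2 stood at 3.20, above the others at 2.80 to 2.90. For Psmd2, chow non-perfused replicate 2, which is 1 of the 4 noisy arrays, stood at 4.62, above the others at 4.45 to 4.49.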

How the results depend on the processing

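The averaged count of 6 members, all down, became 3 with normexp and quantile normalization, 1 (Psmb9) with the authors' deposited values and 10 with slide as a fixed block (adding Psmb4, Psmc5, Psme1 and Psme3ip1) or a random block (adding Psmc5, Psmd7, Psme1 and Psme3ip1). The single counts, 2 in chow mannitol, 2 in chow glucose, 1 in sucrose mannitol and 1 in sucrose glucose, all became 0 with normexp and with the authors' values. With only the compared groups in the fit they became 1, 0, 0 and 0, and likewise 1, 0, 0 and 0 without the 4 noisy arrays, with or without the array alone on its slide (settings chosen after seeing the data). Quantile normalization gave 0 in both sucrose comparisons, and no filter gave 1 in chow glucose and 0 in sucrose glucose. Sucrose glucose had 3 with the median of bright probes, with the filter on all 30 arrays and with trend and robust options, 2 with slide as a fixed block, 4 with it as a random block and 2 without the array alone on its slide. Sucrose mannitol had 2 with either slide block. The replicate number as a block gave 1 in chow glucose, where Psmb10 was lost (adjusted p = 0.0528), ended the averaged call of Ubb (adjusted p = 0.0517), and changed no other count of members, the averaged count staying at 6. Leaving out each array in turn gave 4 to 9 members in the averaged comparison (0 to 1 up), 1 to 3 in chow mannitol, 0 to 3 in chow glucose, 1 to 2 in sucrose mannitol and 0 to 3 in sucrose glucose. The counts for buffer, diet and the interactions were 0 in all 45 alternatives. In the averaged comparison the Psmb9 call held in 45 of 45 alternatives (-0.37 to -0.29), that of Psmb10 in 44, those of Psmd10 and Psme2 in 43, that of Psmg4 in 38 and that of Psmf1 in 28. The exception for Psmb10 was the authors' values (-0.29, adjusted p = 0.246 by limma), and those for Psmd10 and Psme2 were the authors' values and normexp. The cause of these differences between settings was not tested. With the authors' values the median of all genes shifted by 0.11 in sucrose glucose.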

Other observations

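Genes around the proteasome that the report does not describe also moved with perfusion. Of 11 tested ubiquitin ligases of muscle and heart, 3 rose (27.3%) and 0 fell in the averaged comparison, when 10% of all genes rose and 12.3% fell: Mdm2, which targets p53, by 0.44 (adjusted p = 0.000742 by limma), Trim63, the muscle ligase MuRF1, by 0.39 (adjusted p = 9.58e-07) and Fbxo30, a ligase of muscle wasting, by 0.36 (adjusted p = 6.99e-06). Trim63 ranged from 0.32 to 0.74 with a median of 0.49 in perfused hearts, against -0.06 to 0.30 with a median of 0.11 in non-perfused hearts. These sets did not overlap, as in 2.06% of all genes tested in this direction. Of 11 tested genes for p97, the ATPase that extracts proteins for degradation, and its cofactors, 1 fell (9.09%, near the share of all genes), Ubxn1, by 0.21 (adjusted p = 0.00093 by limma).

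Of 12 tested genes of antigen presentation, a list that holds both class I and class II genes, 1 rose (8.33%, near the 10% of all genes) and 0 fell. RT1-Da, a class II gene, rose by 0.52 (adjusted p = 0.00171 by limma), from 0.46 to 1.57 with a median of 1.28 in perfused hearts, against 0.21 to 1.17 with a median of 0.67 in non-perfused hearts. Tap1, the peptide transporter coded beside Psmb9, differed by 0.20 and did not pass (adjusted p = 0.282 by limma), while Psmb9 fell. Tap2, Tapbp and B2m differed by 0.07, -0.01 and -0.07 and did not pass.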
